A study of Eohaustorius estuarius with 16 samples.

Results

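The 8 solvent control arrays of an interlaboratory array study were described on their own, to show how far the transcripts of unexposed animals vary in amount before any treatment is considered. They were the samples whose titles name them as controls, 8 of the 16 arrays of the series, and the other 8 were cyfluthrin arrays. The animal is Eohaustorius estuarius, a burrowing estuarine amphipod used in sediment toxicity tests. The control animals had spent 10 days in sediment spiked with solvent only, and the cyfluthrin animals 10 days in sediment spiked with a pyrethroid insecticide at a nominal 1.6 µg/kg. Total RNA came from whole bodies, was extracted by a single laboratory, and was labelled with Cy3 and hybridised to 1-colour Agilent arrays in the laboratory labelled B. The design text counts 8 control amphipods. It is not stated if each extract came from 1 animal or a pool, or which animals shared a container, and no sex, size or age is given. The spread between these samples holds that between animals, extractions, labellings and arrays together, and a p-value below speaks for these 8 samples alone.

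A whole-body extract of a small crustacean mixes the RNA of muscle, gut, nervous system, cuticle-forming epidermis, blood cells and gonad, and of whatever the gut holds. Crustaceans moult, breed and feed in cycles, and large sets of transcripts are known to rise and fall with those cycles in arthropods. In such bulk samples fewer cells of a type and less RNA per cell cannot be told apart. The arrays name their targets by contig number alone, a contig being an assembled transcript fragment, and the files pair no contig with a gene name or a sequence. The results below are therefore given by contig number and by group, without functions, and the whole-body label could not be checked against markers.

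Each array carried 15208 spots for 8507 contigs, with 1 probe per contig: 2249 contigs had 1 spot per array, 6208 had 2, and 50 had 10 or 11. The value used throughout is the log2 processed signal minus the 75th percentile of that array, so 0 is the level that 25% of the spots exceed. The 75th percentile was 467 to 768 signal units among the 8 arrays, and 82.5% to 92.8% of the spots were well above background, the software's call that a spot exceeds its background. Controls 1 to 4 lay in a row of 1 slide (slide 1) and controls 5 to 8 in the other row of a second slide (slide 2), so slide and row cannot be told apart among the controls. Controls 4 and 5 stood apart from the other 6 arrays, one on each slide, and the main results that rest on them are given with and without them.

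The signals of the controls covered a wide range, and most contigs were detected in every sample. The processed signal ran from 2.75 to 3.90 units at the dimmest spot of an array to between 65819 and 73495 units at the brightest. At least 50% of a contig's spots were well above background on all 8 control arrays for 6795 of the 8507 contigs, on none for 320, and on 1 to 7 arrays for 1392. A contig entered the counts below when it met this on at least 4 of the 8 arrays, which 7586 contigs did. Among these the mean log2 signal over the samples spanned 12.55 log2 units, with quartiles at -3.18 and 0.24 and a median of -1.54. The 10 brightest contigs of an array gave 5.64% to 7.15% of the summed signal of all contigs, and the 100 brightest gave 26.1% to 29.5%.

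Of the 5 brightest contigs, 2 had no saturated spot on any control array, and their SDs between samples were below that of the median contig, 0.29 log2 units. The log2 signals of contig_530 were 5.97, 6.02, 6.01, 6.21, 6.06, 6.23, 5.73 and 6.37 in controls 1 to 8, with a mean of 6.08 and an SD of 0.19 (n = 8). The signals of contig_2945 averaged 6.04 ± 0.15 (SD, n = 8), with the lowest sample at 5.80 and the highest at 6.24. For both, neighbouring samples in the order of levels lay within 0.24 log2 units of each other. The brightest contigs by mean were contig_2392 at 6.72 ± 0.19 and contig_42 at 6.64 ± 0.22 (SD, n = 8 each), but both had a saturated spot on all 8 arrays, so their levels are lower bounds and their spread cannot be read. The remaining one, contig_8297, lay at 5.03 in control 5 and at 6.91 in control 8, with an SD of 0.68 and a saturated spot on 2 arrays.

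The correlation of log2 signals over the 7586 contigs averaged 0.955 among the 28 pairs of control arrays, and contigs are not independent replicates. The closest pair was controls 2 and 7, on different slides, with r = 0.983, and the least alike were controls 3 and 4, on the same slide, with r = 0.918. Controls 4 and 5, which shared neither slide nor row, had r = 0.971 with each other, and no other array reached that value with either of them. Without controls 4 and 5 the mean correlation was 0.968. Pairs on the same slide averaged 0.952 and pairs on different slides 0.956, a difference of -0.0038 (exact permutation p = 0.629, 2-sided, over 35 splits, the smallest possible p being 0.0286).

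**Figure D1:**
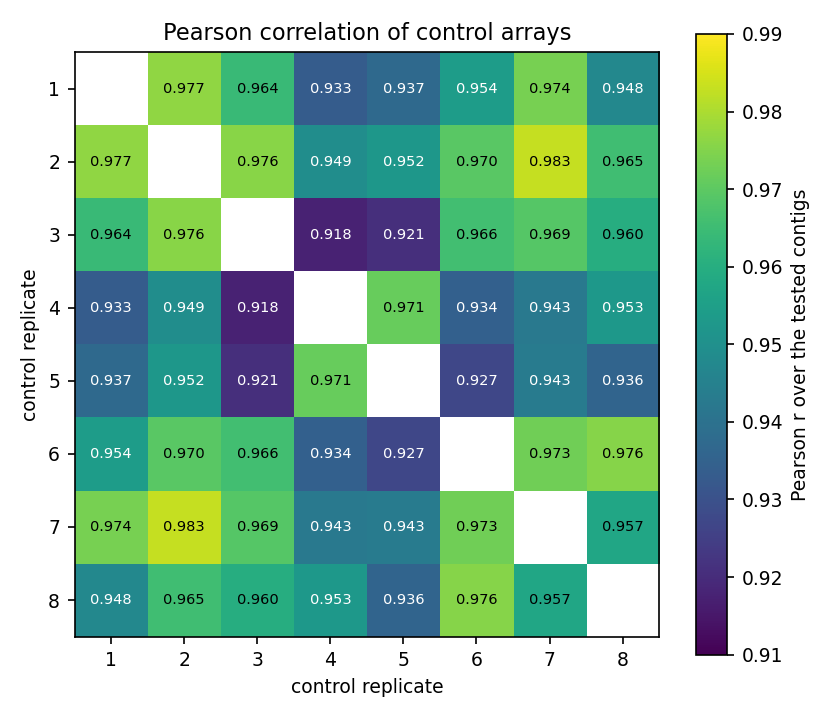
Pearson correlation of log2 signals over the 7586 tested contigs for each pair of the 8 control arrays, both axes giving the replicate number and the colour the correlation. Controls 4 and 5 have the lowest mean correlations with the other arrays, 0.943 and 0.941, and correlate with each other at 0.971.

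No contig passed the test between slides. Of 7586 contigs, 0 differed between slide 2 and slide 1 (0.0% called; limma, 4 against 4 arrays, adjusted p under 0.05). An unadjusted p under 0.05 was reached by 216 contigs, where 379 would arise by chance, and the median difference, slide 2 minus slide 1, was -0.034 log2 units.

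The principal components of the contig-centred values put 44.2% of the variance between control samples on the first axis, 23.1% on the second and 10.1% on the third. On the first axis controls 4 and 5 scored 49.5 and 47.6, and the other 6 arrays lay between -29.5 and 2.34. With both left out, the first axis of the other 6 held 45.9% of their variance. The second axis ran from control 1 at -30.2 to control 8 at 38.3, and the third was highest in control 3 at 25.5. These axes were set against 4 measures of the arrays (75th percentile, percent of spots well above background, 10th percentile of signal, and spike-in level), 12 relations in all, and none passed an adjusted p of 0.05. The lowest adjusted p was that of the third axis with the spike-in level, with Pearson's r = -0.747 and Spearman's rho = -0.838 (n = 8 arrays; 2-sided exact permutation p = 0.00898 for r and 0.0127 for rho, or 0.108 and 0.152 after adjustment). That relation rested on extreme arrays: without the 2 arrays farthest from the median spike-in level, r was -0.367 (n = 6). On the first axis the 6 arrays other than controls 4 and 5 had r = -0.827 with the percent of spots well above background and rho = -0.829 (2-sided exact permutation p = 0.0542 for r and 0.0583 for rho, or 0.142 and 0.327 after adjustment), and r = -0.521 without the 2 farthest arrays (n = 4). The share of spots well above background was 84.5% in control 4 and 83.3% in control 5, and their 75th percentiles were 583 and 628. On both measures, and on the 10th percentile of signal, they lay within the range of the other 6 controls. On the share and the 10th percentile, however, only control 8 was lower. The spike-in level, in log2 units above the 75th percentile, was 1.67 in control 4, the highest of the 8, and 1.54 in control 5. In the other 6 it ran from 0.92 to 1.59. Whether these measures bear on the separation of controls 4 and 5 was not tested.

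Most contigs varied little between unexposed samples and a small set varied greatly. The median SD between the 8 samples was 0.29 log2 units, which is a fold of 1.22, and the quartiles were 0.19 and 0.45. The highest sample exceeded the lowest by a median fold of 1.79, and for 2087 contigs, 27.5%, by less than 1.5-fold. At the other end, 283 contigs (3.73%) had an SD of at least 1, 96 had at least 2 and 35 had at least 3. As measured, the range between samples reached 10-fold for 233 contigs and 100-fold for 70. With values not well above background raised to the lowest signal above background on their array, it reached 10-fold for 202 and 100-fold for 54. Without controls 4 and 5, 204 contigs had an SD of at least 1 and the median SD was 0.25. The count was 167 with normexp background correction and 162 when only contigs above background on all 8 arrays were counted.

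**Figure D2:**
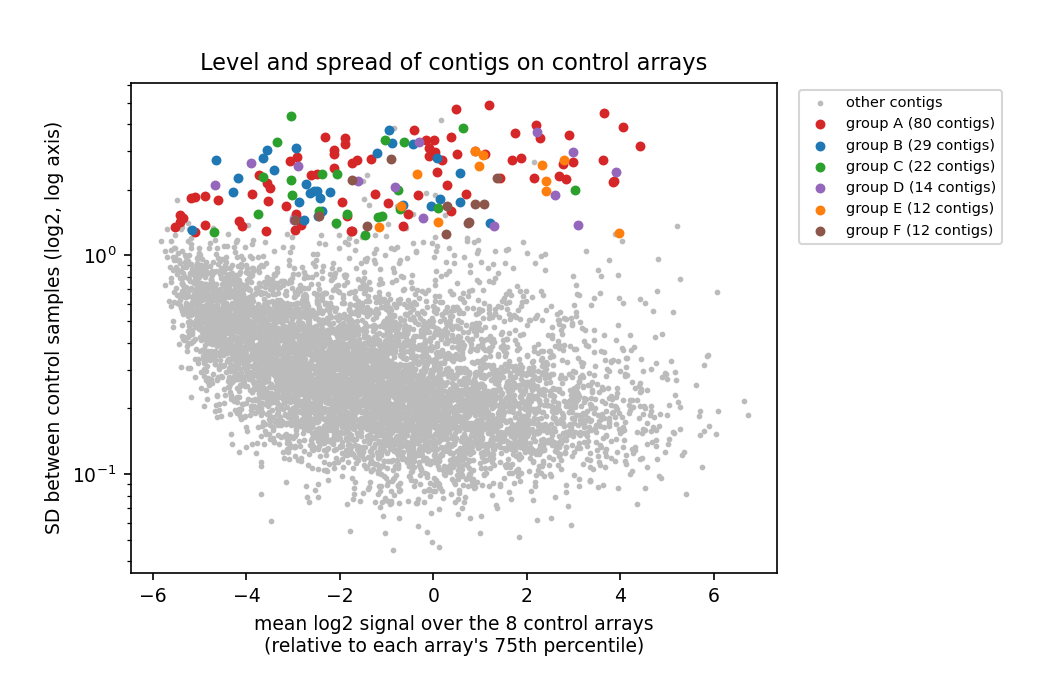
SD between the 8 control samples (vertical, log axis, log2 units) against mean log2 signal (horizontal) for the 7586 tested contigs, with the 6 groups of co-varying contigs in colour and all other contigs in grey. The grey cloud falls from dim to bright contigs, whereas the coloured contigs, all with an SD of at least 1.24, lie at mean levels from -5.53 to 4.41.

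The median spread fell with level, whereas contigs of large spread were found at all levels. With the contigs divided into tertiles by mean signal, the median SD was 0.42 in the dimmest, 0.26 in the middle and 0.21 in the brightest. An SD of at least 1 was found for 98 contigs of the dimmest tertile (3.88%), 84 of the middle (3.32%) and 101 of the brightest (3.99%).

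The spread between samples was larger than the spread between spots of the same contig on an array. For the 5543 tested contigs with 2 spots, the median SD between the spots was 0.093 log2 units and the median SD between samples 0.29, with a median ratio of 2.79 per contig, or 1.72 with normexp background correction. The ratio was 0.95 at its 5th percentile and 10.5 at its 95th. It was under 1 for 325 contigs (5.86%) and at least 10 for 302. Noise between spots made up a median of 6.41% of the variance of the array means. A limma moderated F test over the 8 arrays, with the 2 spots as repeat measurements, found that 4974 of the 5543 contigs, 89.7%, differed between arrays by more than their spots did (adjusted p under 0.05), as did 4591 of 5493 without controls 4 and 5. With normexp background correction 3806 of the 5543 passed, and with quantile normalization 4687. The F test sets arrays against spot noise only, so differences between extractions or labellings count as differences between arrays. The 569 contigs that did not pass had noisier spots: their median spot SD was 0.26 and their median sample SD 0.23, whereas the spot SD was 0.087 and the sample SD 0.29 in those that passed.

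Spot noise rose steeply towards background and the ratio fell with it. The median spot SD was 0.19 in the dimmest tertile, 0.082 in the middle and 0.060 in the brightest, and the median ratio of sample to spot SD was 2.02, 3.17 and 3.57 in the same order. From a mean log2 signal of about 0 upwards both spreads were flat, with bin medians of 0.18 to 0.22 between samples and 0.050 to 0.063 between spots. The 49 tested contigs printed 10 or 11 times had a median spot SD of 0.094, close to the 0.093 of contigs with 2 spots. Their median sample SD was higher, 0.45 against 0.29. So was their median ratio, 4.85 against 2.79, with single ratios of 1.56 to 16.4. Contigs with a single spot, 1994 of those tested, had a median sample SD of 0.28, close to the 0.29 of contigs with 2.

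**Figure D3:**
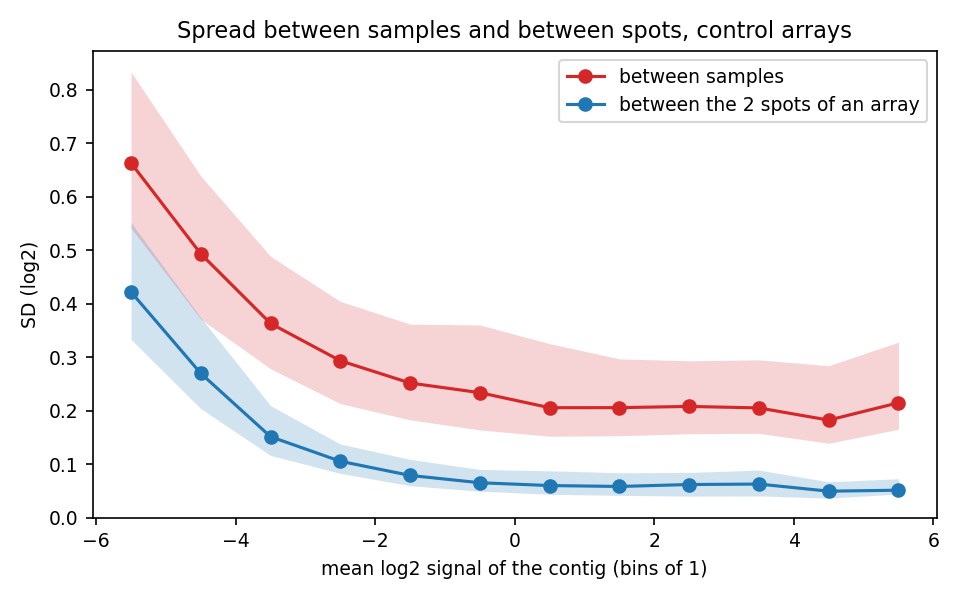
Median SD (log2 units) between the 8 control samples and between the 2 spots of an array, for contigs with 2 spots in bins of mean log2 signal; bands run from the lower to the upper quartile of the contigs and bins hold at least 20 contigs. The curve for samples stays above that for spots in every bin, at 0.66 and 0.42 in the dimmest bin and 0.21 and 0.052 in the brightest.

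Reading the 2 spots apart showed how far the ranking of contigs by spread repeats on the same arrays. Across the 8 arrays the median correlation of the first spot with the second was 0.918 over contigs, and 55.3% of contigs had r of at least 0.9. The 200 contigs with the highest SD on the first spot had a median SD of 1.60 there and 1.52 on the second spot, which the choice had not used, against 0.29 for all contigs on the second spot. On the second spot 158 of these 200 were again among the 200 highest of the 5543 contigs with 2 spots, and 160 had an SD of at least 1. The exceptions went down to an SD of 0.11 on the second spot, so some extreme values on 1 spot were not seen on its duplicate. The 200 contigs with the lowest SD on the first spot, with a median of 0.10 there, had a median of 0.11 and a maximum of 0.29 on the second. Of these, 114 were again among the 200 lowest of the 5543.

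The 10 least variable contigs above background on all 8 arrays differed by no more than 1.12-fold between any 2 samples on the 75th-percentile scale. This spread depended on the scaling: the SDs of the 10 were 0.045 to 0.0585 as reported, 0.067 to 0.14 when arrays were scaled to their median and 0.18 to 0.26 with spike-in scaling. The lowest SD was that of contig_4851 (0.14 with median and 0.25 with spike-in scaling), whose log2 signals were -0.91, -0.85, -0.84, -0.87, -0.83, -0.90, -0.96 and -0.83 in controls 1 to 8 (SD 0.045, a 1.09-fold range). Brighter examples were contig_1774 at 1.84 ± 0.052 and contig_8280 at 2.94 ± 0.0585, and dimmer ones contig_6317 at -1.04 ± 0.054 and contig_7797 at -1.79 ± 0.055 (SD, n = 8 each). The remaining 5 of the 10 least variable, contig_1915, contig_3347, contig_4445, contig_2035 and contig_2181, had SDs of 0.046 to 0.058. For 7 of the 9 with 2 spots the sample SD was below the spot SD, with ratios of 0.37 to 0.90. The sample values average 2 spots and the spot SD is that of single spots. A ratio somewhat below 1 can therefore still exceed what spot noise alone would give. Among the 200 least variable contigs the SD was at most 0.10 and the range at most 1.29-fold. Of these, 132 belonged to the brightest tertile of contigs, 62 to the middle and 6 to the dimmest. On the cyfluthrin arrays these 200 had a median SD of 0.20, against 0.38 for all tested contigs there. Of the 200, 22 (11%) were again among the 200 least variable, a list that makes up 2.64% of the tested contigs.

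The most variable contigs differed by more than 100-fold between unexposed samples. Among contigs above background on all 8 control arrays the highest SD was that of contig_130, whose log2 signals were 6.55, 5.54, 6.03, -3.60, -3.44, 6.96, 6.22 and 4.91 in controls 1 to 8 (SD 4.47). Controls 4 and 5 lay 8.35 log2 units below the next sample, and the whole range was at least 1514-fold, a lower bound because a spot was saturated on 1 array. The 2 spots of this contig agreed closely, with a spot SD of 0.087, so the sample SD was 51.3 times the spot SD. The large spread of contig_130 rested on controls 4 and 5: its sample SD was 0.73 without them. On the cyfluthrin arrays its log2 signal had a minimum of -3.05, a median of 3.96 and a maximum of 6.77.

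Another 5 of the 10 were low in the same samples. The signals of contig_3092 were -2.10 and -2.30 in controls 4 and 5 and between 5.74 and 6.75 in the other 6, a gap of 7.83 log2 units, measured by 1 spot per array. Those of contig_2785 were -2.06 and -3.51 in controls 4 and 5 and 4.14 to 5.34 in the rest, also from 1 spot. In contig_4326, contig_3219 and contig_1177 controls 4 and 5 were again the lowest samples, with ranges of at least 1013-fold (saturated on 1 array), 499.9-fold and 663-fold. Like contig_3092 and contig_2785, contig_3219 and contig_1177 were measured by 1 spot per array. The SD without controls 4 and 5 was 0.38 for contig_3092 (3.88 with them) and 0.45 for contig_2785 (3.55). The spot of contig_3092 was saturated on 1 array, so its spread among the high samples may be understated. It was 2.91 for contig_4326 (3.95), 1.59 for contig_3219 (3.65) and 1.41 for contig_1177 (3.45). All 6 contigs belong to the largest of the groups described below.

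In the remaining 4 of the 10 other samples stood out too, although controls 4 and 5 were the 2 lowest in 3 of them as well. The log2 signals of contig_3644 were 0.25, 1.53, 5.86, -3.49, -3.61, -0.17, -1.65 and 6.41 in controls 1 to 8, so that controls 3 and 8 stood 4.33 log2 units above the rest. Control 3 alone was high for contig_2881, at 5.30, where the next sample was at 0.94 and the lowest at -4.83, from 1 spot per array. The signals of contig_7910 were high in controls 2, 3, 6 and 8 (4.83 to 6.15), near 1 in controls 1 and 7, and lowest in controls 4 and 5 (-2.73 and -3.14). Its widest gap, 3.80 log2 units, lay above controls 4 and 5. This division with a gap of at least 2 was not seen on both spots, and the SD without these 2 samples was 2.195. The signals of contig_1676 were high in controls 4, 6 and 8 (2.99, 3.37 and 3.96) and between -3.41 and -1.94 in the other 5. In contig_1676, therefore, controls 4 and 5 lay on opposite sides of the widest gap.

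**Figure D4:**
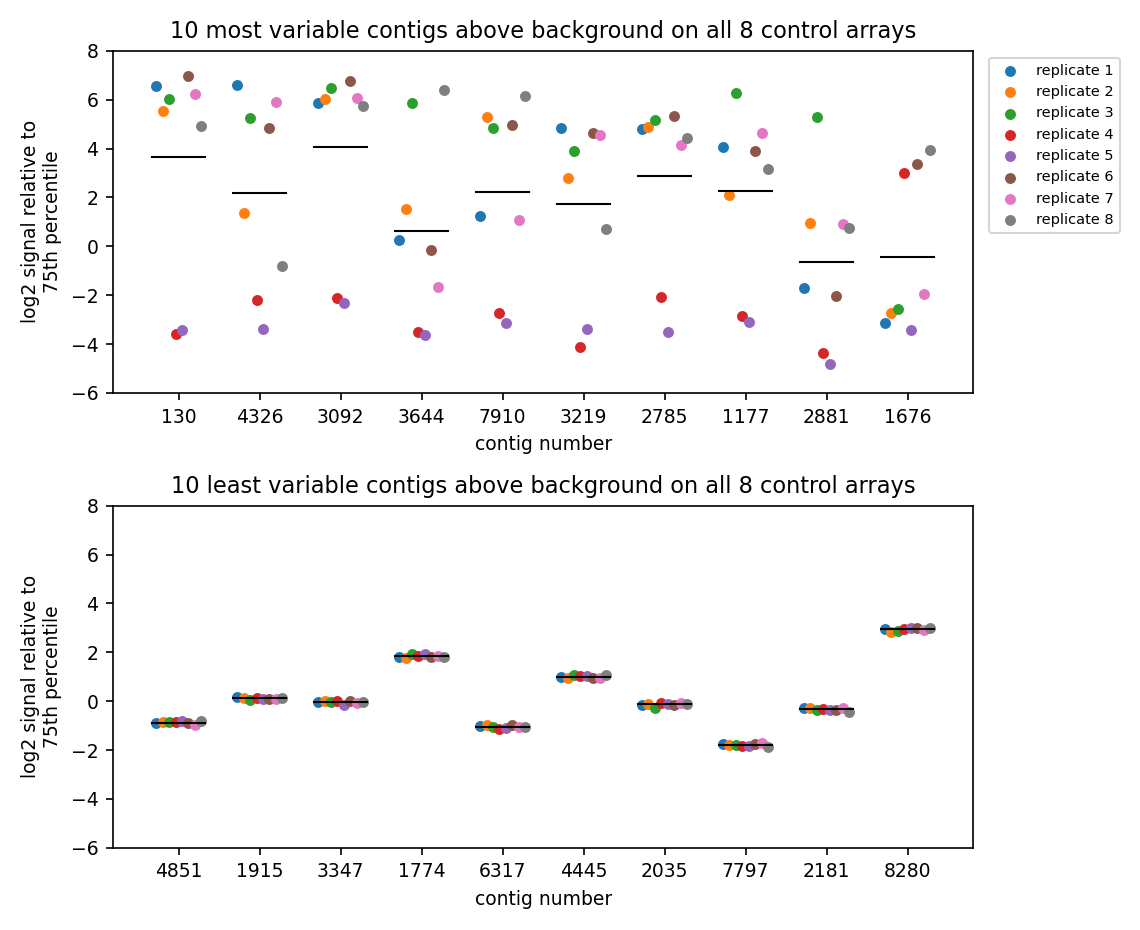
Log2 signal relative to the array's 75th percentile for the 10 most and 10 least variable contigs above background on all 8 control arrays; each point is a control sample coloured by replicate number, and the black bar is the mean of the 8. Points of the upper contigs spread over ranges of 165.5-fold to 1514-fold, with controls 4 and 5 the 2 lowest samples in 9 of the 10, and those of the lower contigs stay within 1.12-fold.

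The variable contigs were grouped by their correlation over the 8 arrays. The 200 contigs with the highest SD, from 4.87 down to 1.239 (1.237 for the next contig), were joined by average linkage on 1 minus Pearson's r, and the tree was divided at a height of 0.3. Of the 200, 169 fell into 6 groups of at least 10 contigs, called A to F by size, with 80, 29, 22, 14, 12 and 12 members. The other 31 formed 11 smaller sets, 5 of them single contigs. Pairs of the 200 had r of at least 0.7 in 26.6% of cases, against 7.36% of all pairs of tested contigs, and r of -0.7 or below in 0.754%. The groups were made from these values, so their correlations on the control arrays describe the grouping and are not evidence for it. Of the 200, 115 were above background on all 8 arrays and 137 had 2 spots.

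Group A, with 80 contigs, was low in controls 4 and 5. All 80 lay below their own mean in both, and the average deviation from the contig mean was -3.60 and -3.57 log2 units there. In controls 1, 2, 3, 6, 7 and 8 it was 1.64, 0.56, 1.66, 1.82, 1.30 and 0.19. Only 39 of the 80 were well above background on all 8 arrays: 38 were not in control 4 and 34 were not in control 5. With such values raised to the lowest signal above background, the average deviation was -3.13 in control 4 and -3.19 in control 5. The members closest to the average were contig_2046, contig_6134 and contig_175. For contig_2046 controls 4 and 5 were at -4.74 and -5.24 and the other 6 between 0.54 and 2.18, all above background. The range of contig_6134 was at least 46.0-fold, because controls 4 and 5 were not well above background. The mean correlation within the group was 0.867, and 0.40 over the 6 arrays without controls 4 and 5. Over the 7584 contigs with a value on every array, members included, 184 followed the average profile with r of at least 0.9, 109 of them with an SD of at least 0.5. The 80 members made that profile, so their part in these counts was set by the grouping. The opposite profile, r of -0.9 or below, was found for 50 contigs, 1 of them with an SD of at least 0.5. The filter of at least 4 arrays keeps contigs undetected only in controls 4 and 5 but leaves out contigs detected only there. The counts for the 2 directions therefore cannot be set against each other.

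Group B, with 29 contigs, was high in controls 8 and 6 and low in controls 5 and 2. The average deviation was 3.28 and 2.29 log2 units in controls 8 and 6, where all 29 were above their mean, and -2.62 and -1.71 in controls 5 and 2, where all 29 were below it. In control 5, 12 of the 29 were not well above background, and the average there was -2.21 with dim values raised. Control 4 varied among members, with 18 above and 11 below their mean. The log2 signals of contig_4000 were -0.53, -1.42, 1.02, 0.78, -2.69, 2.37, -0.12 and 5.07 in controls 1 to 8, and those of contig_603, printed 10 times per array, were -3.47, -4.04, -2.11, -1.92, -5.15, -0.66, -3.94 and 0.78. Both were highest in control 8 and lowest in control 5, and contig_4000 was measured by 1 spot per array. The third, contig_2009, was at 2.68 in control 8 and 2.65 in control 6, and at -2.10 in control 5. The mean correlation was 0.806, and 0.860 without controls 4 and 5.

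Group C, with 22 contigs, was high in control 3 and, less so, in control 8. All 22 were above their mean in control 3, with an average deviation of 3.502 log2 units. In control 8, 20 were above it and the average was 1.98. In controls 4 and 5 all 22 were below it, at -2.10 and -2.70 on average, or -1.95 and -2.31 with the values not well above background (7 of the 22 in each) raised. The signals of contig_1178 were 4.64 in control 3, 1.65 in control 8, and between -5.48 and 0.20 in the other 6. Its neighbour in number, contig_1179, had 2.62 in control 3 and was above background on 5 of the 8 arrays, with a range of at least 238-fold. The range of contig_2471 was smaller, 29.4-fold, with the same 2 highest and 2 lowest samples. Both contig_1178 and contig_2471 were measured by 1 spot per array. The group's mean correlation was 0.812, and 0.705 without controls 4 and 5.

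Group D, with 14 contigs, shared the low values of controls 4 and 5 with group A but differed in controls 1 and 7. The average deviation was -3.41 and -2.31 log2 units in controls 4 and 5 and 1.55, 1.92, 1.61 and 2.10 in controls 2, 3, 6 and 8, with all 14 members on that side in each. With dim values raised (3 of the 14 in control 4 and 4 in control 5) it was -3.08 and -2.06 in controls 4 and 5. In control 1, where all members of group A were above their mean, 13 of the 14 were below it, and in control 7 this held for 10 of the 14 and for 1 of the 80. Beside contig_7910, given above, the members closest to the average were contig_4958, with a range of 67.9-fold, and contig_2256, printed 11 times, with a range of at least 18.03-fold. The mean correlation was 0.860, and 0.759 without controls 4 and 5.

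Groups E and F, with 12 contigs each, were the most tightly correlated, with mean correlations of 0.948 and 0.927. Group E was lowest in control 1, with an average deviation of -4.14 log2 units, and high in controls 4, 6 and 8, at 2.19, 1.79 and 2.07, with all 12 on that side in each. The signals of contig_2344 were -2.21, 1.32, 1.33, 5.56, 2.75, 5.23, 2.51 and 5.87 in controls 1 to 8. Those of contig_1442 ran from -5.34 in control 1, not well above background, to 3.95 in control 8, a range of at least 477-fold, and those of contig_2458 from -4.89 to 2.25. Group F was high in control 4 and control 1, at 2.27 and 1.34 on average, and low in controls 6 and 5, at -2.45 and -1.95, again with all 12 on that side. The log2 signals of contig_2011 were 1.59, 0.81, -0.37, 2.61, -0.76, -1.33, 1.84 and 1.66. Its neighbour in number, contig_2010, followed the same order of extremes, at 2.03 in control 4 and -1.47 in control 6, as did contig_253, at -0.69 and -4.96. Each of contig_2011, contig_2010 and contig_253 had 1 spot per array. Without controls 4 and 5 the mean correlations of E and F were 0.953 and 0.929, as high as with them.

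**Figure D5:**
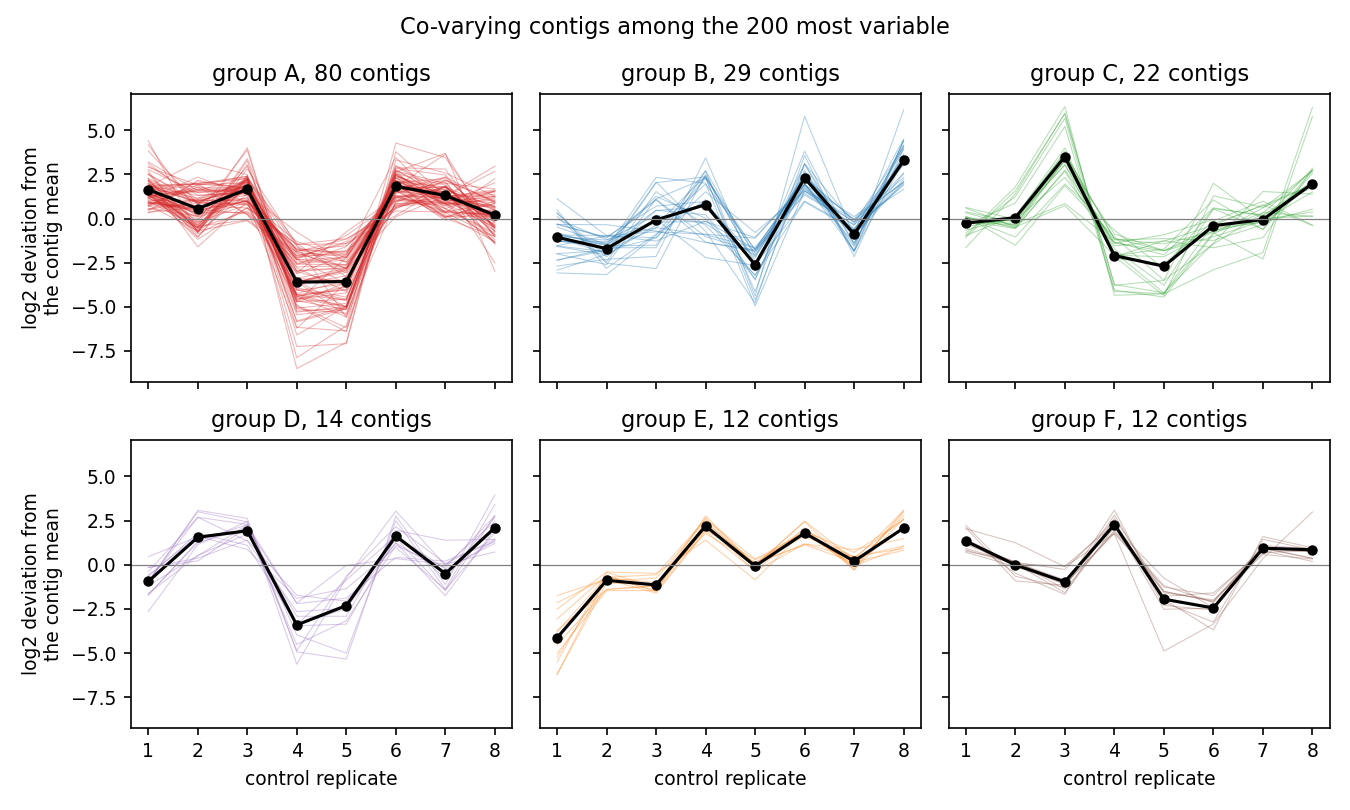
Log2 deviation from each contig's mean (vertical) in the 8 control replicates (horizontal, with no order) for the 6 groups of co-varying contigs; thin lines join the values of a contig and black points give the group mean. Controls 4 and 5 are lowest in groups A, C and D, control 5 in group B, control 1 in group E and control 6 in group F.

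Some groups were high or low in the same samples. The average profiles of C and D had r = 0.809 over the 8 arrays, those of A and D 0.761, those of A and C 0.692, and those of B and E 0.623. The lowest was that of A and E, at -0.379. With the tree divided at 0.4 in place of 0.3 the largest group held 117 contigs, and at 0.2 it held 72. Among the 169 grouped contigs, 12 pairs had consecutive contig numbers and 7 of these pairs shared a group. The share among random pairs of grouped contigs was not computed, so no excess is read from this. Over all tested contigs, 6703 pairs with consecutive numbers had a median r of 0.040, near the median of 0.035 over all pairs. Between 3 and 18 members of each group had a single spot, and the median ratio of sample to spot SD was 12.7 to 29.3 in the 6 groups.

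The same groups were then read on the 8 cyfluthrin arrays, which had no part in making them but share the slides, the laboratory and the probes. There the members' mean correlation was 0.643 in A, 0.801 in B, 0.850 in C, 0.706 in D, 0.884 in E and 0.663 in F, against 0.357 over all pairs of the 200 and 0.068 over all pairs of tested contigs. Members of B had a mean r of 0.324 with those of C on the control arrays and 0.776 on the cyfluthrin arrays, and members of C one of 0.681 with those of D on the control arrays and -0.0050 on the cyfluthrin arrays. These differences were not tested. Of the 200 contigs, 180 (90.0%) had an SD of at least 1 on the cyfluthrin arrays, against 7.71% of all tested contigs, and 140 (70.0% of either list) were among the 200 most variable there. A list of 200 makes up 2.64% of the tested contigs.

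Some contigs divided the samples into separate levels. For 133 of the 7586 contigs (1.75%) a gap of at least 2 log2 units, 4-fold, separated neighbouring samples, and 123 of these were among the 200 most variable. There were 80 such contigs without controls 4 and 5, 82 with normexp background correction and 78 among contigs above background on all 8 arrays. The commonest division, in 56 contigs, placed controls 4 and 5 below the other 6, with a median gap of 3.99 log2 units; 53 of the 56 belonged to group A. Next came 13 contigs with control 4 alone at the bottom, 9 with controls 4, 6 and 8 at the top, 8 with control 3 alone at the top and 7 with control 1 alone at the bottom. In all 18 divisions were seen. Of the 89 such contigs with 2 spots, 71 showed the same division with a gap of that size on each spot, among them 37 of 41 for controls 4 and 5. A division with control 3 alone at the bottom, in 6 contigs, was seen in both spots for 0 of the 5 that had 2. For 35 of the 133 no sample below the gap was well above background. With such values raised to the lowest signal well above background on their array, 121 contigs had a gap of 2 log2 units, and the median gap of the 56 was 3.55.

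The widest gaps were those of contig_130, contig_274, contig_3092, contig_766 and contig_2785. The log2 signals of contig_274 were 3.01, 4.40, 3.68, -7.30, -5.82, 4.98, 2.45 and 4.16 in controls 1 to 8, and since controls 4 and 5 were not well above background, its range was at least 1221-fold. Its SD as measured, 4.87, was the highest of the tested contigs, but with dim values raised it was 4.24, below the 4.47 of contig_130. With controls 4 and 5 left out its SD was 0.93. Alone among the 5, contig_766 left out controls 4 and 5: its signals were -7.04 and -5.73 in controls 6 and 7, not well above background, and between 1.08 and 3.64 in the other 6, a range of at least 498.5-fold, with the same division on each spot. It was joined in the tree by 4 contigs, contig_7110, contig_1262, contig_3621 and contig_2236, named here after their values were seen, and the average deviation of the 5 from the contig mean was -4.75 log2 units in control 6 and -4.37 in control 7. Of the 5, 2 were not well above background in control 6 and 3 in control 7, and with these values raised the averages were -4.09 and -4.13. On the cyfluthrin arrays contig_766 had a minimum of -7.01, a median of 0.85 and a maximum of 2.74.

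The samples differed in how often they lay far from the median of the others. Against the median of the other 7 arrays, control 5 was at least 4-fold lower for 150 contigs and control 4 for 130, while the other 6 controls were so for 14 to 44 contigs each. These counts include contigs low in both, such as the 56 with a gap above controls 4 and 5. Control 8 was at least 4-fold higher for 63 contigs, control 6 for 53 and control 3 for 52, and control 5 for 5. All these counts cover the 7586 tested contigs. Contigs well above background on fewer than 4 arrays are left out, so rises from background in few samples are missed while falls are kept. Counts of higher and of lower contigs therefore cannot be set against each other. Controls 2 and 7 lay far from the others least often, control 2 with 17 contigs at least 4-fold higher and 14 at least 4-fold lower and control 7 with 15 of each. Control 2 had the highest mean correlation with the others (0.968) and the smallest median deviation from the contig mean, 0.13 log2 units. Over all 8507 contigs, filtered or not, control 1 was the only array well above background for 200, and each of the other controls for 3 to 27. Control 8 was the only array not well above background for 134 contigs and control 5 for 77, and each of the other 6 for 1 to 35. The 10th percentile of control 1's signals was 27.1 units, against 8.26 to 19.7 in the other 7, and the part of this in its detections was not tested.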

How the data were processed

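Each scanner file gives every spot's processed signal, an intensity that the authors' scanner software, Agilent Feature Extraction, had background-subtracted and detrended within the array, per the file headers (version 10.7.1.1, where the submitters' processing notes name version 9.1). A value table on the log2 scale was also deposited. Its columns matched quantile-normalized log2 signals centred on each probe's median over the 16 arrays (r of 0.9967 to 0.9999 and slopes of 0.9946 to 1.0011 over 8507 contigs, control column medians of -0.031 to 0.038). Scale, centring and direction were taken from that match, since the sources used here do not give the authors' steps.

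Control spots and 137 of the 121664 contig spot values, marked as outliers by the software, were left out and the spots of a contig averaged on the log2 scale. Saturated spots were kept. A contig was counted when 50% or more of its spots passed the background call on 4 or more of the 8 control arrays. Cyfluthrin arrays were scaled the same way and entered only the readings named as theirs. A range given as "at least" raises values that are not well above background to the lowest signal well above background on that array. Fits used R 4.3.3 with limma 3.58.1 (its lmFit and eBayes functions), with p-values 2-sided and Benjamini-Hochberg adjusted, and were tested on simulated data. The number of arrays limits the precision.

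The contigs named were the 10 most and 10 least variable above background on all 8 control arrays, the 3 nearest each group mean, the 5 widest gaps, the 5 brightest, and up to 2 in each direction past the threshold between slides (there were none). The lists and settings were chosen with earlier results of these data known. Alternatives were quantile and median scaling, normexp with an offset of 50 on the median signal, the authors' table, other filters and thresholds, outlier spots kept, slide means removed, and each array left out. Added after seeing the data were controls 4 and 5 left out together, spike-in scaling with 7 probes, and dim values raised to the lowest signal above background.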

Additional observations from a re-analysis of the deposited data

Results flagged for a closer look

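For 49 sets of 8 values, the named contigs and a few measures of the arrays, the distance of the highest or lowest control from its nearest neighbour was taken as a share of the whole range and set against Dixon's 95% critical value. In 3 sets it was above that value, where chance gives about 1 in 20. The spike-in level of control 3 was 0.92 log2 units above its 75th percentile, against 1.52 to 1.67 in the other 7 controls, with a gap of 0.808 of the range. For contig_2035, one of the least variable, control 3 was at -0.26 and the others between -0.16 and -0.092, a gap of 0.614 of a range that was itself 1.12-fold. For contig_1442 of group E, control 1 was at -5.34, not well above background, and the others between -0.22 and 3.95, a gap of 0.551 of the range.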

How the results depend on the processing

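Normexp background correction with an offset of 50 lowered the median SD to 0.19 (0.29 as reported), the ratio of sample to spot SD to 1.72 (2.79), the contigs with an SD of at least 1 to 167 (283) and those with a 2-unit gap to 82 (133). It also lowered the contigs that differed between arrays beyond their spots to 3806 of 5543 (4974), and quantile normalization lowered them to 4687. Spike-in scaling gave a median SD of 0.37, a ratio of 3.74 and 49.1% of variance on the first axis (44.2%). Counting only contigs above background on all 8 arrays, which leaves fewer contigs, gave 162 with an SD of at least 1 and 78 with a gap. Leaving out controls 4 and 5 together gave a mean correlation of 0.968 (0.955), 80 contigs with a gap, 141 of the 200 most variable kept, and at most 17 of the 80 contigs of group A in 1 group (66 to 80 when each array was left out). Other thresholds gave 563 contigs with an SD of at least 0.75, 151 of at least 1.5, 206 with a gap of at least 1.5 and 71 of at least 3. Leaving out each array gave median SDs of 0.27 to 0.30, 258 to 287 contigs with an SD of at least 1, ratios of 2.68 to 2.93, mean correlations of 0.950 to 0.959, 38.3% to 51.7% on the first axis, 5 to 7 groups, 121 to 150 gaps and 4737 to 4924 contigs that differed between arrays. The 10 least variable contigs had SDs of 0.067 to 0.14 with median scaling and 0.18 to 0.26 with spike-in scaling. Apart from thresholds and filters the causes were not tested. The correlation between arrays was not taken from the authors' table or with slide means removed, where contigs are centred. In every setting tried 0 contigs differed between slides (limma, adjusted p under 0.05), with 141 to 471 at an unadjusted p under 0.05. No paired analysis was possible because the controls are a single group and the 2 slides share no replicate number.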
